A study of Rattus norvegicus with 10 samples.

Results

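Motile cilia are the beating hairs of multiciliated cells, which line the conducting airways and move mucus out of the lung. Each is built on a microtubule scaffold, the axoneme, whose doublets carry outer and inner dynein arms, nexin-dynein complexes, radial spokes and tektin filaments. The arms are assembled in the cytoplasm by dedicated factors, and the parts are carried into the cilium by intraflagellar transport, a particle system that cells with a single primary cilium also use. The genes described here were chosen by symbol: the numbered Cfap, Dnah, Dnai, Dnaaf, Drc, Rsph, Tekt and Ift genes together with Tppp3, Dynlrb2, Ccdc39 and Ccdc40. The deposited table held 76 such genes among 22250, and 71 of them were among the 14320 genes that passed a filter on low counts. Foxj1, the transcription factor of motile ciliogenesis that the choice also names, and Ift172 are not analysed here.

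Messenger RNA of rat lung tissue was sequenced in 10 libraries that carry the names MOD 1 to MOD 5 and XBS 1 to XBS 5. Neutrophilic asthma was modelled in rats with lipopolysaccharide and ovalbumin, and the study gave Shuangpi Formula (SP). The labels do not expand MOD or XBS, tie neither name to SP, and give no strain, sex, age or dose, so the comparison is stated as XBS against MOD. They also list the human bronchial line 16HBE for every library, while the table carries rat gene identifiers and the summed level of 10 alveolar type 2 markers was 17311 to 34811 CPM (a gene's counts scaled to its library's total, adjusted by TMM). Whether each library is a different animal is not stated, so the p-values rest on library-to-library spread that may be technical. Total counts ran from 11998979 to 15518929 per library, and 3 counts, taken as the detection floor, corresponded to 0.193 to 0.25 CPM (counting error only).

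XBS 2 and XBS 3 stood apart from the other 8 libraries in these genes. This pair was set apart with earlier results of these data known, so the counts below describe it and test nothing. XBS 2 and XBS 3 were the lowest pair of the 10 libraries for 61 of the 71 tested members, against 7.57% of all tested genes. Their mean was under 0.5 times the mean of the other 8 libraries for 43 members, against 5.66% of all tested genes. XBS 4 and XBS 5 were the highest pair for 53 members, against 5.87% of all tested genes. These 2 pairs of libraries belong to the same group. The comparison of the groups is given with and without XBS 2 and XBS 3, whereas XBS 4 and XBS 5 were not left out together. In bulk tissue, fewer ciliated cells and less RNA per cell cannot be told apart.

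The promoter sequences of a few members are shown because RFX factors, which bind X-box sites, and forkhead factors such as FOXJ1 are the known regulators of these genes. The 250 bases before the transcription start were taken from RefSeq (build GRCr8) for the 62 members matched by symbol or gene identifier, using the window listed first for each gene. The RFX half-site letters GTTGCC, read on either strand (GGCAAC), were present in 15 of 62 members (24.2%) and in 9.9% of all 27457 windows of that length. The forkhead letters TGTTTA, read on either strand (TAAACA), were present in 9 of 62 (14.5%) and in 12.2% of all windows. The half-site letters stood in 7 of 38 windows (18.4%) of members with a mean under 0.5 times that of the other libraries in XBS 2 and XBS 3 and in 7 of 21 (33.3%) of the other tested members. These matches describe letters only. Shown 5′ to 3′ with the half-site in capitals are Tekt1 (chr10:57479122-57479371, minus strand), Dnai2 (chr10:100258772-100259021, plus strand) and Drc1 (chr6:31779257-31779506, minus strand), whose levels were among the lower ones in XBS 2 and XBS 3, and Ift88 (chr15:35688737-35688986, plus strand) and Cfap298 (chr11:43677383-43677632, minus strand), which varied less; Cfap298 holds 4 half-sites, and the other 4 windows hold 1 each.
Tekt1: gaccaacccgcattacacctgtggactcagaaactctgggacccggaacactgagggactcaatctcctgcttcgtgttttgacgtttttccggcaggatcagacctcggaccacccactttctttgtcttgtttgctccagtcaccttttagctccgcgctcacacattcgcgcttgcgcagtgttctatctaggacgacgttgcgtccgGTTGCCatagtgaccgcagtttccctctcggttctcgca
Dnai2: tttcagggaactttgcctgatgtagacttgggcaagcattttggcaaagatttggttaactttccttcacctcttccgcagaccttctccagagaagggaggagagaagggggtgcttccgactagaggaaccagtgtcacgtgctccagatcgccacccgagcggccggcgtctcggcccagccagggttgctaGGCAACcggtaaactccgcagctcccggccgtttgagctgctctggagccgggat
Drc1: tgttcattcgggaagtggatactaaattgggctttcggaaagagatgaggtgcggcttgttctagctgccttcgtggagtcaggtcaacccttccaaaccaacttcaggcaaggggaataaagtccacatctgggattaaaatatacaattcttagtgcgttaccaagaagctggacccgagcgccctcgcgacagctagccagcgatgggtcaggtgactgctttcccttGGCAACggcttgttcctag
Ift88: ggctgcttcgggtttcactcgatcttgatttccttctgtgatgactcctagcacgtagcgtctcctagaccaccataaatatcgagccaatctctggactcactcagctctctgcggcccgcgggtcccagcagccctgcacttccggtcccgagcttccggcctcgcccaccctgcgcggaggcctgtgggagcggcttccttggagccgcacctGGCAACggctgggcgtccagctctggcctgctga
Cfap298: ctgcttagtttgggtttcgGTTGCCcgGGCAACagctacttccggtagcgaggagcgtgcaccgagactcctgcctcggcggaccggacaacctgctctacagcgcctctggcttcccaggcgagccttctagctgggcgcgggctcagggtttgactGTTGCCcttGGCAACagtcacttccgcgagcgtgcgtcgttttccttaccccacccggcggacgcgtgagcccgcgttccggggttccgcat

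Levels between genes were compared per length, as the deposited FPKM. Tppp3, a microtubule-binding protein of ciliated and other cells, was the highest member at 476 ± 63.6 FPKM in MOD and 391 ± 102 FPKM in XBS (SD, n = 5). Dynlrb2, a dynein light chain, followed with a mean over all libraries of 73.0 FPKM, and Cfap20, a protein of the doublet inner junction, with 58.3 FPKM. The dynein heavy chains lay lower per length, from 0.255 FPKM for Dnah17 to 6.81 FPKM for Dnah12. The 13 Ift genes ran from 6.91 FPKM (Ift88) to 44.1 FPKM (Ift20), a narrower range than that of the 24 tested Cfap genes (1.62 to 58.3 FPKM). The 5 members that did not pass the filter were Rsph4a with 1 to 11 counts in 9 libraries and 0 in XBS 2, Cfap58l1 with 0 to 8 counts, Rsph6a with 0 to 3, Cfap97d1 with 0 to 2, and Cfap58 with 1 count in XBS 2 alone. Cfap58 and Cfap58l1 are similar genes whose reads the counting could have split.

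No member passed the test of XBS against MOD. By edgeR over all 14320 genes, 0 of 71 rose at an adjusted p of 0.05 (0.0279% of all tested genes did) and 0 fell (0.0489%), where 0.0768% of all tested genes passed in either direction, and the lowest adjusted p of a member was 0.377 (Ift43). At an unadjusted p under 0.05 edgeR gave 1 member, against 13.2% of all tested genes. DESeq2 gave 0 members past its adjusted threshold, against 2.58% of its genes. At an unadjusted p under 0.05 DESeq2 gave 1 member, against 2041 of 14299 genes. The groups did not overlap for 0 members, against 2.74% of all tested genes. The log2 fold change was negative for 56 of 71 members (48.1% of all tested genes) with a median of -0.14, against 0.01 over all tested genes. Without XBS 2 and XBS 3, a choice made with their values known, the sign turned: 67 of 71 were positive (53.4% of all genes tested in that fit), with a median of 0.31. In that fit 0 members passed the adjusted threshold (0.0206% of all genes) and 5 had an unadjusted p under 0.05 by edgeR (11.1% of all genes). Leaving out XBS 2 alone gave a median of 0.03 and leaving out XBS 3 alone gave 0.03 as well. The fit without XBS 2 and XBS 3 kept XBS 4 and XBS 5, so the removal was one-sided. Leaving out XBS 5 alone gave a median of -0.39, and leaving out XBS 4 alone gave 66 negative members.

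**Figure D1:**
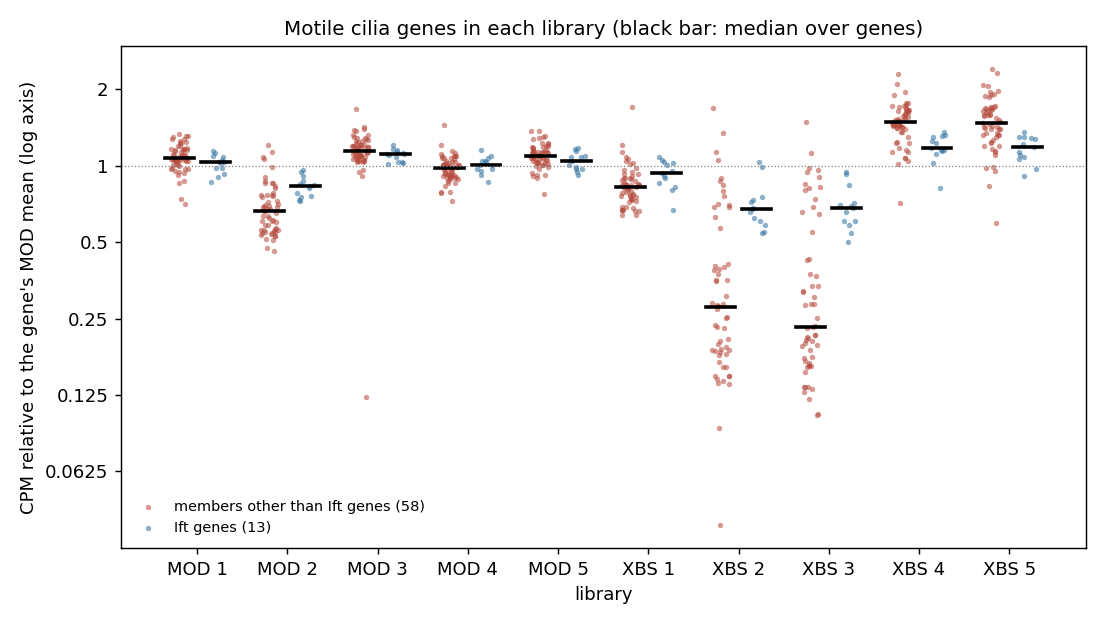
CPM of each tested member relative to its own mean over the 5 MOD libraries (log axis), by library, with the 58 members other than Ift genes in red, the 13 Ift genes in blue and black bars at the medians. Over the 57 red genes other than Tppp3, the medians fall to 0.273 in XBS 2 and 0.231 in XBS 3 and reach 1.501 and 1.48 in XBS 4 and XBS 5. The blue medians stay between 0.673 and 1.19.

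The libraries took a similar order in most members. The median over the 57 members other than Ift genes and Tppp3, relative to each gene's MOD mean, was 1.07, 0.662, 1.16, 0.978 and 1.10 in MOD 1 to MOD 5 and 0.827, 0.273, 0.231, 1.501 and 1.48 in XBS 1 to XBS 5. The XBS libraries thus spanned both extremes, and the MOD libraries lay between them. MOD 2 was the lowest MOD library for 61 of 71 members, against 21.3% of all tested genes. XBS 1 lay above XBS 2 and XBS 3 and below XBS 4 and XBS 5 for 62 members, against 9.43% of all tested genes. This is not a separate observation for 53 of these members (3.31% of all tested genes). In them XBS 2 and XBS 3 were the lowest pair and XBS 4 and XBS 5 the highest, which fixes the place of XBS 1. For the 13 Ift genes the same medians were 0.829 to 1.11 in MOD and 0.939, 0.673, 0.68, 1.18 and 1.19 in XBS 1 to XBS 5, again with XBS 2 and XBS 3 lowest and XBS 4 and XBS 5 highest but over a smaller range.

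Outer dynein arms give the cilium most of its beating force. Dnah5, an outer arm heavy chain (chromosome 2, 80948658 to 81143447, plus strand, as in the deposited table; no source used here names its rat build), had 11.4, 9.37, 16.8, 18.5 and 21.2 CPM in MOD 1 to MOD 5. In XBS 1 to XBS 5 it had 11.6, 0.592, 1.62, 23.3 and 26.3 CPM. XBS 2 and XBS 3 lay below every other library and XBS 4 and XBS 5 above every MOD library, so the groups overlapped, with means of 15.4 ± 4.94 and 12.7 ± 11.9 CPM (SD, n = 5). Its mean in XBS 2 and XBS 3 was 15.7-fold below that of the other 8 libraries, the largest such difference among the tested members. Its log2 fold change of -0.28 ± 0.75 (SE) did not pass (adjusted p = 0.891 by edgeR).

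Dnah9, the partner heavy chain, was 6.11-fold lower in XBS 2 and XBS 3 than in the other 8 libraries, and Dnah11, a further outer arm heavy chain, 2.78-fold lower. The ratio of Dnah9 to Dnah11 CPM was 0.765 to 1.06 in the other 8 libraries, 0.51 in XBS 2 and 0.357 in XBS 3, so these genes did not move in a fixed proportion. Dnai1, an outer arm intermediate chain, had 12.8, 10.3, 17.8, 13.0 and 13.5 CPM in MOD 1 to MOD 5 and 8.63, 2.0, 1.41, 19.5 and 19.3 CPM in XBS 1 to XBS 5. Its log2 fold change of -0.40 ± 0.61 (SE, adjusted p = 0.803 by edgeR) was the most negative of the 71. Dnai2, its partner, was 6.09-fold lower in XBS 2 and XBS 3. Both libraries were below the remaining ones in both genes.

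Dnah8 and Dnah17, outer arm chains known from sperm flagella, did not follow the other 3. Their means in XBS 2 and XBS 3 were 1.36 and 1.17 times those of the other libraries, the highest ratios among the tested members. Dnah17 had 3.66, 2.52, 3.07, 2.13 and 3.33 CPM in MOD 1 to MOD 5 and 5.01, 4.96, 2.83, 2.97 and 3.94 CPM in XBS 1 to XBS 5, with overlapping groups. Its log2 fold change was 0.42 ± 0.24 (SE, adjusted p = 0.454 by edgeR). Dnah8 and Dnah17 were low per length, at 0.274 and 0.255 FPKM. Of 10 sperm cell markers, 0 passed the filter and 5 had 0 counts in every library (Prm1, Tnp1, Akap4, Smcp and Pgk2).

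**Figure D2:**
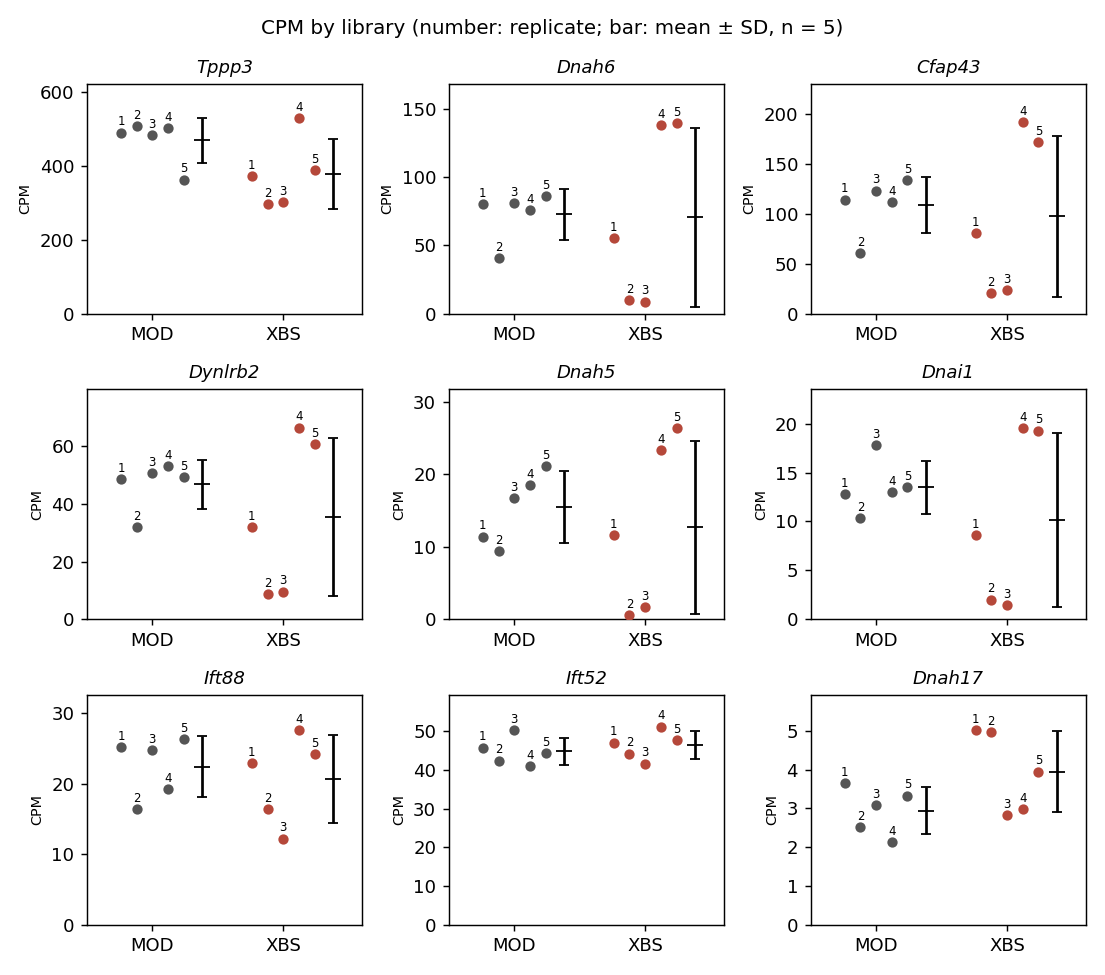
CPM in each library for 9 members, with the replicate number at each point and the mean ± SD (n = 5) beside each group; every axis starts at 0. Dnah5, Dnah6, Dnai1, Cfap43 and Dynlrb2 show XBS 2 and XBS 3 below and XBS 4 and XBS 5 above all MOD libraries, whereas Ift52 runs from 41.0 to 51.2 CPM across all 10.

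Inner dynein arms shape the bend of the beat. All 5 tested inner arm heavy chains (Dnah1, Dnah2, Dnah6, Dnah7 and Dnah12) had XBS 2 and XBS 3 lowest and XBS 4 and XBS 5 highest. Dnah6 (chromosome 4, 100936978 to 101156576, minus strand) had 80.5, 40.4, 81.0, 75.8 and 86.3 CPM in MOD 1 to MOD 5. In XBS 1 to XBS 5 it had 55.4, 10.1, 8.75, 138 and 140 CPM, so the XBS group held the lowest and the highest libraries. Its group means were nearly equal at 72.8 ± 18.5 and 70.5 ± 65.4 CPM (SD, n = 5), with a log2 fold change of -0.05 ± 0.68 (SE, adjusted p = 0.982 by edgeR). Summed over the 5 genes, the lowest and highest libraries were XBS 3 at 38.4 CPM and XBS 5 at 515 CPM, a 13.4-fold range. Dnah12 was 4.81-fold and Dnah7 7.14-fold lower in XBS 2 and XBS 3 than in the others.

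The dynein arm assembly factors differed in how low XBS 2 and XBS 3 were. Dnaaf1 and Dnaaf3, needed for preassembly of the arms, were 5.55-fold and 5.80-fold lower in XBS 2 and XBS 3. Dnaaf2 and Dnaaf5, which serve the same process, had ratios of 0.716 and 0.665 of the other 8 libraries, and Dnaaf4 lay between at 0.346. None of the 5 passed the test between the groups (lowest adjusted p = 0.814 by edgeR). For all 5, XBS 2 and XBS 3 were the lowest pair.

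CCDC39 and CCDC40 form the molecular ruler that sets the repeat length of the axoneme, and their genes diverged. Ccdc40 had 23.7, 16.2, 30.7, 26.7 and 25.2 CPM in MOD 1 to MOD 5 and 18.9, 3.63, 3.23, 36.9 and 34.4 CPM in XBS 1 to XBS 5. Ccdc39 had 41.7, 29.8, 43.6, 32.4 and 47.6 CPM in MOD 1 to MOD 5 and 44.2, 26.7, 21.5, 67.2 and 62.9 CPM in XBS 1 to XBS 5. XBS 2 and XBS 3 were lowest in both genes, but by 7.75-fold for Ccdc40 and 1.92-fold for Ccdc39. The ratio of Ccdc40 to Ccdc39 was 0.1357 and 0.1505 in XBS 2 and XBS 3 and 0.4275 to 0.822 in the other 8 libraries. The sources used here do not say whether strand was kept, and reads of overlapping genes may be included. Ccdc39 had a log2 fold change of 0.19 ± 0.30 (SE) and Ccdc40 of -0.34 ± 0.60 (SE), with adjusted p = 0.811 and 0.831 by edgeR.

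Drc1, Drc3 and Drc7 encode parts of the nexin-dynein regulatory complex, which links neighbouring doublets. Their ratios of XBS 2 and XBS 3 to the other libraries were 0.152, 0.176 and 0.144. Among the radial spoke genes, which carry signals from the central pair to the arms, the 5 tested members had ratios from 0.146 (Rsph10b) to 0.312 (Rsph3). Rsph1, a spoke head protein, averaged 19.9 ± 3.83 CPM over the MOD libraries and 17.9 ± 13.2 CPM over the XBS libraries (SD, n = 5), with an adjusted p of 0.912 by edgeR. The XBS spread for Rsph1 exceeded the difference between the means.

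The tektins, filament proteins inside the doublets, divided by gene. Tekt1 and Tekt4 were 6.44-fold and 6.95-fold lower in XBS 2 and XBS 3. Tekt2 and Tekt3 had ratios of 0.764 and 0.758, and Tekt5 of 0.949. Tekt5 had a log2 fold change of -0.35 ± 0.20 (SE, adjusted p = 0.452 by edgeR). Its mean was lower in XBS without XBS 2 and XBS 3 as well, by -0.45 on the log2 scale (adjusted p = 0.496 by edgeR in that fit).

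**Figure D3:**
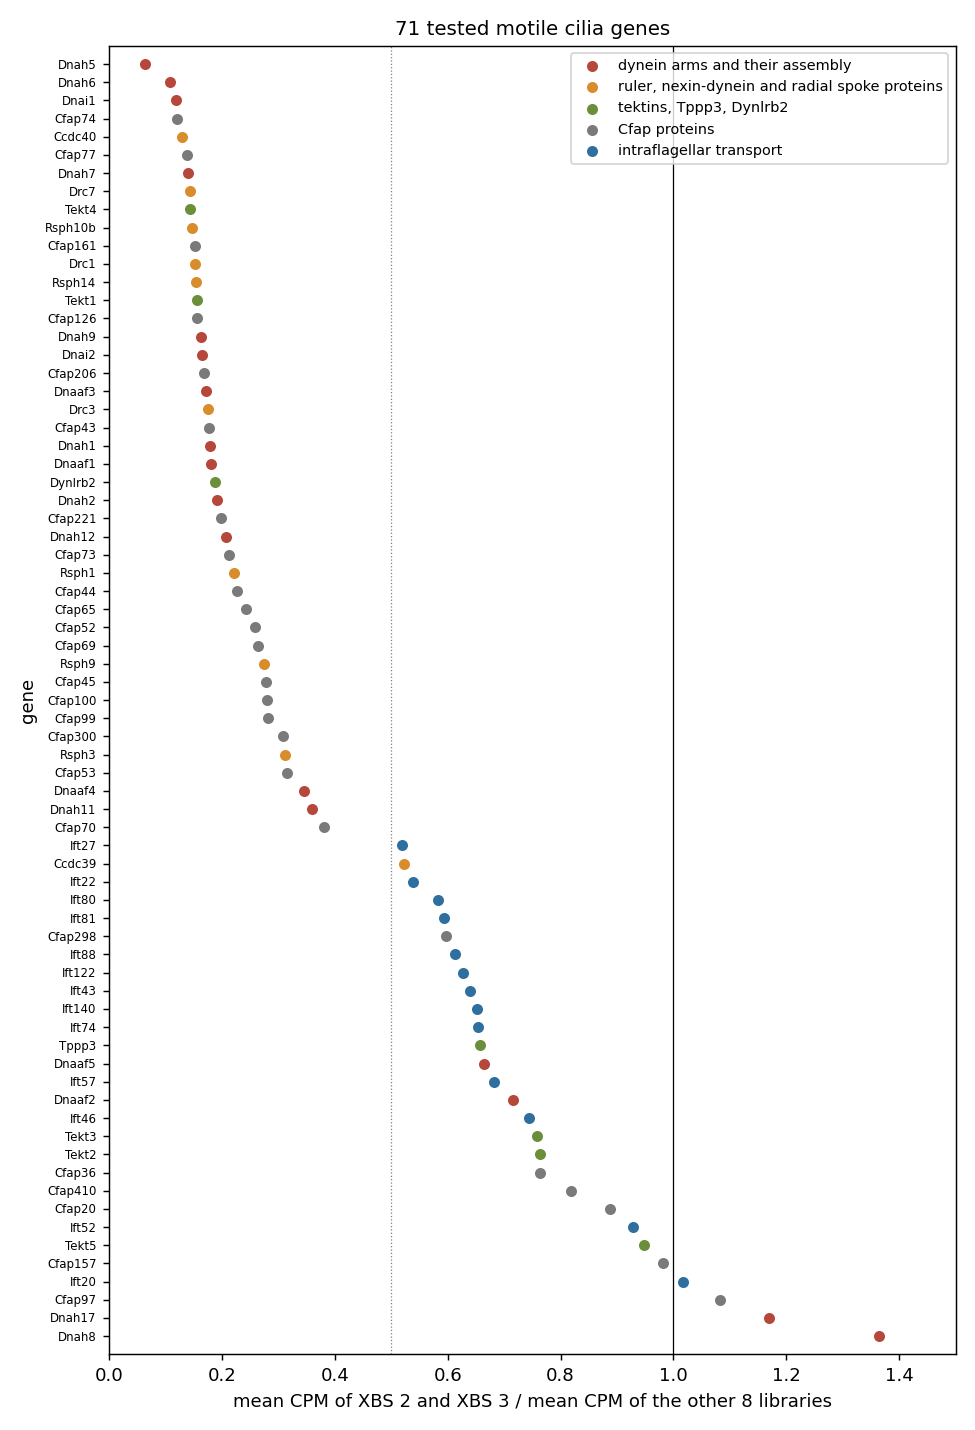
Mean CPM of XBS 2 and XBS 3 divided by the mean CPM of the other 8 libraries, for each of the 71 tested members in order, coloured by role; the solid line marks equal levels and the dotted line a ratio of 0.5. The genes at the lower end, from Dnah5 at 0.0638 to Cfap70 at 0.38, include no Ift gene, and the Ift genes begin at 0.519.

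The Cfap genes, named for proteins of cilia and flagella, spanned nearly the whole range. Cfap43, needed for sperm flagella and airway cilia (chromosome 1, 267511523 to 267598639, minus strand), had 114, 60.8, 123, 112 and 134 CPM in MOD 1 to MOD 5. In XBS 1 to XBS 5 it had 80.6, 20.5, 23.4, 192 and 172 CPM. Its partner Cfap44 followed it closely, with a Cfap43 to Cfap44 ratio of 0.982 to 1.49 over all 10 libraries. Cfap126 and Cfap52 were 6.43-fold and 3.87-fold lower in XBS 2 and XBS 3 than in the other 8. At the other end, Cfap20, Cfap36, Cfap410, Cfap97, Cfap157 and Cfap298 had ratios of 0.888, 0.764, 0.819, 1.08, 0.981 and 0.598. Cfap157 had a log2 fold change of 0.19 ± 0.15 (SE, adjusted p = 0.59 by edgeR), and Cfap97 of 0.06 ± 0.12 (SE, adjusted p = 0.856 by edgeR). None of the 24 passed the test.

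Dynlrb2, a light chain shared by cytoplasmic and ciliary dyneins, had 48.6, 32.0, 50.8, 53.2 and 49.2 CPM in MOD 1 to MOD 5. In XBS 1 to XBS 5 it had 32.1, 8.81, 9.56, 66.5 and 60.6 CPM (log2 fold change -0.40 ± 0.51 (SE), adjusted p = 0.763 by edgeR). Its paralogue Dynlrb1 moved otherwise, with 109 to 117 CPM in MOD and 120, 148, 116, 104 and 103 CPM in XBS 1 to XBS 5. XBS 2, among the lowest libraries for Dynlrb2, was thus the highest for Dynlrb1. Tppp3 had 490, 507, 482, 502 and 363 CPM in MOD 1 to MOD 5 and 373, 296, 302, 529 and 388 CPM in XBS 1 to XBS 5. XBS 2 and XBS 3 were again lowest, but only 1.52-fold below the others (log2 fold change -0.31 ± 0.16 (SE), adjusted p = 0.425 by edgeR).

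The intraflagellar transport genes varied less than the axonemal genes. Their ratios of XBS 2 and XBS 3 to the other libraries ran from 0.519 (Ift27, a small GTPase) to 1.02 (Ift20, which also works at the Golgi), and 0 of 13 were under 0.5, against 43 of 58 other members. The 3 tested members of complex A, which carries cargo back to the cell body, had ratios of 0.628 to 0.652, and the 10 of complex B, the outward complex, 0.519 to 1.02. Ift88, a core subunit of complex B (chromosome 15, 37691345 to 37784924, plus strand), had 25.2, 16.4, 24.7, 19.2 and 26.3 CPM in MOD 1 to MOD 5. In XBS 1 to XBS 5 it had 22.9, 16.4, 12.2, 27.6 and 24.2 CPM, so that XBS 3 was lowest and XBS 2 equalled MOD 2 at this precision. Ift57 was 1.47-fold lower in XBS 2 and XBS 3 and Ift27 1.93-fold lower.

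Ift43, a complex A subunit, had 30.6, 25.6, 30.3, 32.3 and 28.6 CPM in MOD 1 to MOD 5 and 24.2, 19.4, 17.2, 30.1 and 26.9 CPM in XBS 1 to XBS 5. It had the lowest p of all members, with a log2 fold change of -0.32 ± 0.15 (SE, unadjusted p = 0.0491, adjusted p = 0.377 by edgeR). XBS 4 and XBS 5 lay within the MOD range. Without XBS 2 and XBS 3 the log2 fold change was -0.12 (adjusted p = 0.659 by edgeR). Summed over the 13 genes, Ift levels ran from 351 CPM in XBS 3 to 573 CPM in XBS 5, a 1.63-fold range. The ratio of this sum to that of the inner arm heavy chains was 1.11 to 3.08 in the other 8 libraries, 5.75 in XBS 2 and 9.15 in XBS 3.

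**Figure D4:**
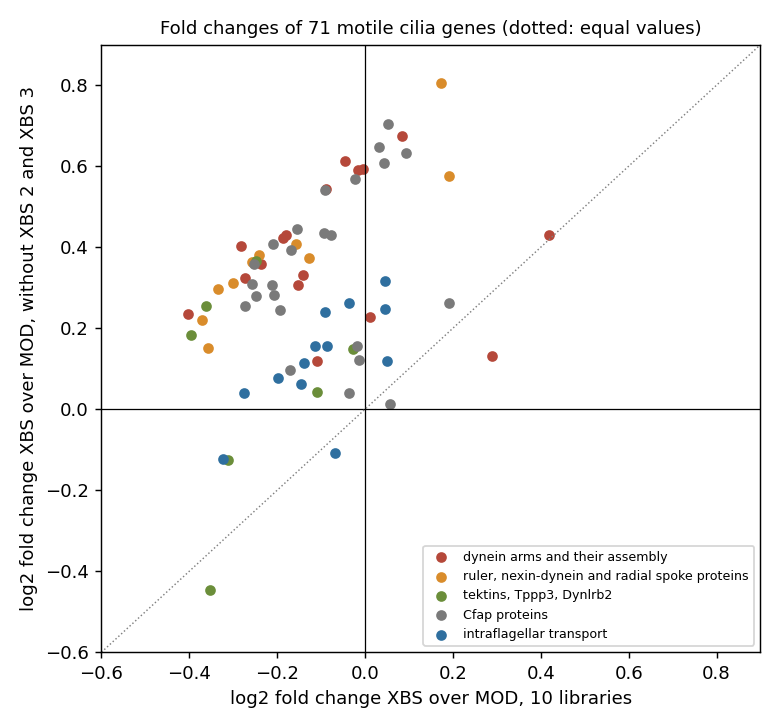
Log2 fold change of XBS over MOD for each of the 71 tested members in all 10 libraries (horizontal) and without XBS 2 and XBS 3 (vertical), coloured by role, with a dotted line at equal values. Negative values predominate on the horizontal axis (56 of 71) and positive values on the vertical axis (67 of 71); no point passed an adjusted p of 0.05 in either fit by edgeR.

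The split at 0.5 times the mean of the other 8 libraries was chosen after the values were seen. The members on either side of it nearest to it were Cfap70 at 0.38 and Ift27 at 0.519. The mean of the other 8 libraries includes MOD, XBS 4 and XBS 5. High values in XBS 4 and XBS 5 thus lower the ratio. The order of those libraries among the 43 members under the split is therefore not independent of it. MOD 2 was the lowest MOD library for all 43 (21.3% of all tested genes). XBS 4 and XBS 5 were the highest pair for 40 of them (5.87% of all tested genes). Their XBS 4 and XBS 5 mean was 1.32-fold to 2.13-fold of the MOD mean, with a median of 1.57-fold. Of the 28 members above it, MOD 2 was lowest of MOD for 18 and XBS 4 and XBS 5 highest for 13, with a median of 1.17-fold. Median FPKM was 7.66 in the 43 and 11.2 in the 28.

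Genes of the pathway outside the chosen symbols were read from lists chosen with earlier results of these data known, and none of their members passed the test of XBS against MOD by edgeR. For comparison with the counts below, 48.1% of all tested genes had a negative fold change. XBS 2 and XBS 3 were the lowest pair for 7.57% of all tested genes. Of 15 tested regulators of the multiciliated state, 10 had negative and 5 positive fold changes, and XBS 2 and XBS 3 were the lowest pair for 10. Mcidas, a coactivator that starts the program, had a ratio of 0.0981, Ccno and Deup1, of centriole amplification, 0.202 and 0.214, and Tp73, a transcription factor upstream of the program, 0.174. The Mcidas ratio rests on few reads, with 1 count in XBS 2, under the floor of 3, and 6 in XBS 3. The general factors E2f4, E2f5 and Rfx1 had ratios of 1.06, 1.09 and 1.12. Of 40 tested axonemal genes outside the symbols, 35 were negative and 5 positive, and 33 had XBS 2 and XBS 3 lowest (median ratio 0.223). Of 23 further ciliated cell genes, 21 were negative and 2 positive, and 22 had XBS 2 and XBS 3 lowest (median ratio 0.167). Of 31 other transport subunits, motors and BBSome genes, 24 were negative and 7 positive, and 20 had XBS 2 and XBS 3 lowest (median ratio 0.7).

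Markers of other cell types moved with these genes in part. The summed level of 14 club and secretory cell markers was 2446 and 2720 CPM in XBS 2 and XBS 3 and 8038 to 12277 CPM in the other 8 libraries. Scgb1a1 alone made up most of that sum, at 1934 and 2158 CPM in XBS 2 and XBS 3 and 6666 to 10835 CPM elsewhere. XBS 2 and XBS 3 were the lowest pair for 8 of the 12 tested markers of this list, against 7.57% of all tested genes. Goblet cell markers summed to 13.8 and 15.6 CPM in XBS 2 and XBS 3 and 29.7 to 225 CPM elsewhere, and XBS 2 and XBS 3 were the lowest pair for 2 of its 4 tested members. Those were Agr2 (ratio 0.0946) and Clca1 (0.0321), while Foxa3 had a ratio of 0.561 and Spdef of 0.998. Basal airway cell markers were low throughout, at 3.22 to 8.68 CPM summed over 7 genes, with Dlk2 at 0. Ngfr, the 1 marker of this list that passed the filter, made up most of that sum at 2.51 to 6.53 CPM. Alveolar markers did not share this order: XBS 2 and XBS 3 were the lowest pair for 0 of 10 type 1 and 0 of 10 type 2 markers, with median ratios of 1.04 and 1.09. Their sums were not even across libraries and were lowest in XBS 5. Type 1 markers summed to 7507, 8546 and 5532 CPM in XBS 2, XBS 3 and XBS 5 and 8280 to 9570 CPM in MOD. Type 2 markers summed to 26148, 34811 and 17311 CPM in the same 3 libraries and 25578 to 33112 CPM in MOD. Low values in XBS 5 raise these ratios. Of 10 pan-epithelial markers, 1 had them as the lowest pair (median ratio 0.82). Leukocyte markers had a median ratio of 1.36 and summed to 995 and 695 CPM in XBS 2 and XBS 3 against 471 to 645 CPM elsewhere. In XBS 2 much of that sum was S100a9 at 377 CPM and S100a8 at 148 CPM, against 166 and 32.9 CPM in XBS 3. Elsewhere they had 89.9 to 201 and 21.2 to 80.2 CPM. Ptprc had 355 and 363 CPM in XBS 2 and XBS 3 and 246 to 359 CPM elsewhere. Fibroblast and endothelial markers had median ratios of 0.604 and 0.948, with XBS 2 and XBS 3 lowest for 0 of their 10 tested members. Fibroblast markers summed to 3498 and 3876 CPM in XBS 2 and XBS 3, within the MOD range of 2688 to 5112 CPM. XBS 5 had 8569 CPM, which lowers the fibroblast ratio. The 5 markers of brain ependyma, another ciliated epithelium, summed to 109 and 138 CPM in XBS 2 and XBS 3 and 143 to 191 CPM elsewhere. Enpp2 made up most of that sum at 99.5 to 149 CPM, Mlc1 had 1.56 to 7.81 CPM, Gfap at most 3.01 CPM and Ttr at most 0.148 CPM. Sox2, which airway epithelium also expresses, was the 1 of 3 tested markers with XBS 2 and XBS 3 lowest (ratio 0.176). The part of these cell types in the values of the ciliary genes was not tested.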

How the data were processed

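The deposited table gave, per its headers, whole read counts per gene and FPKM for the 10 libraries. The deposited FPKM equalled count over gene length and library total, to within a relative difference of 8.82e-08. No source used here names the aligner, the counter or the rat build; the submitters' processing notes name the human builds hg38 and GRCh38 and the mouse build mm10. Counts were tested with edgeR 4.0.16 in R 4.3.3 (TMM scaling, quasi-likelihood test, Benjamini-Hochberg adjustment over 14320 genes) after a filter (minimum count 10, total 15) that kept 99.921% of counts. CPM values are counts divided by TMM-scaled library totals over the tested genes. No 2 libraries of a group agreed within sampling noise. DESeq2 1.42.0, RLE scaling, other filters, a replicate block and leaving out each library were the alternatives; leaving out XBS 2 and XBS 3 together was added after seeing the data. The fit was tested on simulated data. The members and lists were chosen with earlier results of these data known. Genes were named by role, by smallest p in each direction, by highest FPKM and by highest and lowest ratio of XBS 2 and XBS 3 to the other libraries; further members are named to complete a role and were chosen after their values were seen. Of the listed marker and pathway entries, 22 had no row and are not analysed here.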

Additional observations from a re-analysis of the deposited data

Results flagged for a closer look

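In 5 of 62 groups of 5 libraries tested for the named genes, 1 library stood further from the other 4 than Dixon's 95% critical value of 0.71 allows; chance flags about 1 in 20 groups. MOD 2 accounts for 3 of them, in which Dynlrb2 had 32.01 CPM, Dnah6 40.44 CPM and Cfap52 19.39 CPM, each the lowest of its MOD group. Tppp3 in MOD 5 was lowest of MOD at 362.7 CPM. Dnah8 in MOD 3 was lowest at 0.439 CPM, while the other 4 MOD libraries had 3.90 to 5.18 CPM. The causes were not tested.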

How the results depend on the processing

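No member passed the adjusted threshold under any alternative run. RLE scaling, both other filters and, for the members, DESeq2 kept the direction of all 31 named genes tested, and DESeq2 called 348 of all genes. Correlations of same-numbered deviations were -0.125 to 0.329, and 1 of 5 libraries correlated best with its own number. These values do not decide whether the replicate numbers pair the libraries. With the replicate block, the members' median log2 fold change was -0.35, 1 of all genes was called, and Dnah12 reversed to -0.34. Leaving out 1 library gave medians from -0.39 (without XBS 5) to 0.031 (without XBS 2), 25 (without XBS 2) to 66 (without XBS 4) negative members and 4 to 15 calls over all genes.

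Without single libraries, the log2 fold changes that changed sign ranged, from lowest to highest, from -0.0084 to 0.36 for Ccdc39, -0.63 to 0.0092 for Cfap126, -0.56 to 0.10 for Cfap43, -0.56 to 0.019 for Dnaaf1, -0.39 to 0.050 for Dnah11, -0.42 to 0.36 for Dnah12, -0.73 to 0.024 for Dnah5, -0.45 to 0.24 for Dnah6, -0.49 to 0.19 for Dnah7, -0.55 to 0.082 for Dnah9, -0.58 to 0.077 for Dnai2, -0.24 to 0.025 for Ift88, -0.51 to 0.090 for Rsph1 and -0.64 to 0.020 for Tekt1.

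Without XBS 2 and XBS 3 together, 4 members were negative, the median was 0.31 and 3 of all genes were called. The log2 fold change reversed to 0.18 for Dynlrb2, 0.30 for Ccdc40, 0.40 for Dnah5, 0.43 for Dnah9, 0.31 for Dnah11, 0.23 for Dnai1, 0.42 for Dnai2, 0.61 for Dnah6, 0.54 for Dnah7, 0.36 for Dnaaf1, 0.32 for Dnaaf3, 0.31 for Drc1, 0.41 for Rsph1, 0.37 for Tekt1, 0.26 for Tekt4, 0.44 for Cfap43, 0.26 for Cfap52, 0.36 for Cfap126, 0.039 for Ift27, 0.063 for Ift57, 0.16 for Ift88 and 0.039 for Cfap20. The cause was not tested.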

Other observations

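Axonemal genes outside the chosen symbols had ratios of XBS 2 and XBS 3 to the other libraries from 0.0834 to 1.06, within the members' range of 0.0638 to 1.36. Spef2, a central pair protein, had 4.54 to 5.88 CPM in MOD and 5.26, 0.148, 0.875, 10.5 and 7.67 CPM in XBS 1 to XBS 5 (ratio 0.0834). The Spef2 value in XBS 2 lay under the detection floor of that library (0.225 CPM). Hydin, another central pair protein, had a ratio of 0.154, and Dnali1, an inner arm light chain, 0.134. Tubb4b, a tubulin of axonemes, had a ratio of 0.62, whereas Tuba1a, a tubulin of most cells, had 1.06 and Cetn2, a centriole protein, 0.91. Sox2, a transcription factor of airway and ependymal epithelium, had 12.5 to 30.1 CPM in MOD and 21.9, 5.40, 3.70, 37.4 and 34.8 CPM in XBS 1 to XBS 5, with XBS 2 and XBS 3 lowest and XBS 4 and XBS 5 highest. None of these 7 genes passed the test of XBS against MOD by edgeR (lowest adjusted p = 0.603, Tubb4b).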
